A study of Mus musculus with 8 samples.

Results

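B-cell acute lymphoblastic leukaemia (B-ALL) and T-cell acute lymphoblastic leukaemia (T-ALL), which both arose in mice with N-Myc overexpression, were compared gene by gene with 1 RNA-seq library of each. The genes compared were all 10259 of the 16434 genes in the deposited table that had an FPKM of at least 1 in either library. FPKM is the number of sequenced fragments per length of transcript and per depth of sequencing, so that levels of different genes can be compared per length. The B-ALL cells were sorted as B220+ GFP+ and the T-ALL cells as CD3+ GFP+, from bone marrow of C57BL/6 mice aged 8 to 10 weeks. Both libraries share the strain, the tissue and the overexpressed gene, and GFP marked the leukaemia cells. The vector or promoter that drove N-Myc, and whether a library came from 1 mouse or from several, are not given in the sources used here. Libraries of normal B220+ (normal B) and normal CD3+ (normal T) marrow cells, and of an acute myeloid (AML) and an acute undifferentiated leukaemia (AUL) of the same study, are given as context. With 1 library per group no difference has a replicate check, no p-value exists, and a difference between the libraries can be one between single samples.

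The totals recovered from the steps of the FPKM values were 42874116 fragments for B-ALL and 43206624 for T-ALL, so both were sequenced to about the same depth, and the listed genes held 70.8% of the fragments in each. Differences are given as log2(FPKM + 1) of B-ALL minus T-ALL, and a gene counts as different at an absolute value of at least 1, which is 2-fold on that scale. Lists are counted over their genes with at least 1 FPKM in either library, and a gene that reached 1 FPKM only in the library where it is high tends to differ for that reason. Folds are ratios of the FPKM values themselves, with a 95% interval for the ratio of 2 counts. The intervals cover counting error only, and the fragments are not counted by molecular identifiers. In sorted bulk cells, fewer cells of a type and less RNA per cell cannot be told apart.

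B and T lymphocytes develop from a common progenitor under different transcription factors. Ebf1 and Pax5 turn on the genes of the B-cell receptor and hold the B-cell identity, while Tcf7, Gata3 and Bcl11b do so for T cells. Each lineage then assembles an antigen receptor from V, D and J gene segments, immunoglobulins in B cells and T-cell receptors in T cells, and a clone of cells carries the same rearrangement. N-Myc, encoded by Mycn, is a transcription factor of the MYC family, which dimerises with Max at E-box sequences and is known for driving ribosome production, metabolism and cell division.

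Mycn itself was high in both leukaemias and higher in B-ALL. Mycn (ENSMUSG00000037169, mm10 chromosome 12, 12936096 to 12941914) had 1587 FPKM in B-ALL and 843 FPKM in T-ALL, 1.88-fold higher (95% counting interval 1.86 to 1.90), a log2 difference of 0.91 that stays just under the 2-fold rule. Myc, the c-Myc gene, had 2.35 FPKM in B-ALL and 0.874 in T-ALL, and Mycl, the L-Myc gene, had 0.0816 FPKM in B-ALL and 0.0135 in T-ALL. Ptprc, the gene of which the B220 antigen is an isoform, had 212 FPKM in B-ALL and 181 in T-ALL, and gene-level values do not separate the isoforms. The CD3 genes of the T-ALL gate were 12.7-fold lower for Cd3d (30.3 in B-ALL against 385 in T-ALL), 7.55-fold lower for Cd3e (23.8 FPKM in B-ALL, 180.1 in T-ALL) and 8.94-fold lower for Cd3g (23.8 FPKM in B-ALL, 213 in T-ALL). The B-ALL library held CD3 transcripts above the level in normal B cells, where Cd3d had 0.991 FPKM.

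Of the 10259 genes, 1768 (17.2%) were at least 2-fold higher in B-ALL and 1235 (12.0%) at least 2-fold lower, together 29.3%. The other 7256 genes were less than 2-fold apart. At 4-fold the counts were 687 higher (6.70%) and 423 lower (4.12%), and at 16-fold 109 and 56. The median log2 difference was 0.033, with quartiles of -0.47 and 0.60, so the deposited scaling placed the middle of the comparison close to 0. An FPKM of at least 1 was reached by 8165 genes in both libraries, by 1275 in B-ALL alone and by 819 in T-ALL alone. The authors' rule for entering a gene in the table is not given in the sources used here. The table's name refers to differential genes, and whether genes were chosen for their differences is not known. All shares refer to the listed genes only. At the minimum level, the 155 genes with 1 to 1.1 FPKM in the higher library had a median log2 difference of 0.092, and the 188 with 0.9 to 1 FPKM, which were left out, had -0.0023.

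**Figure D1:**
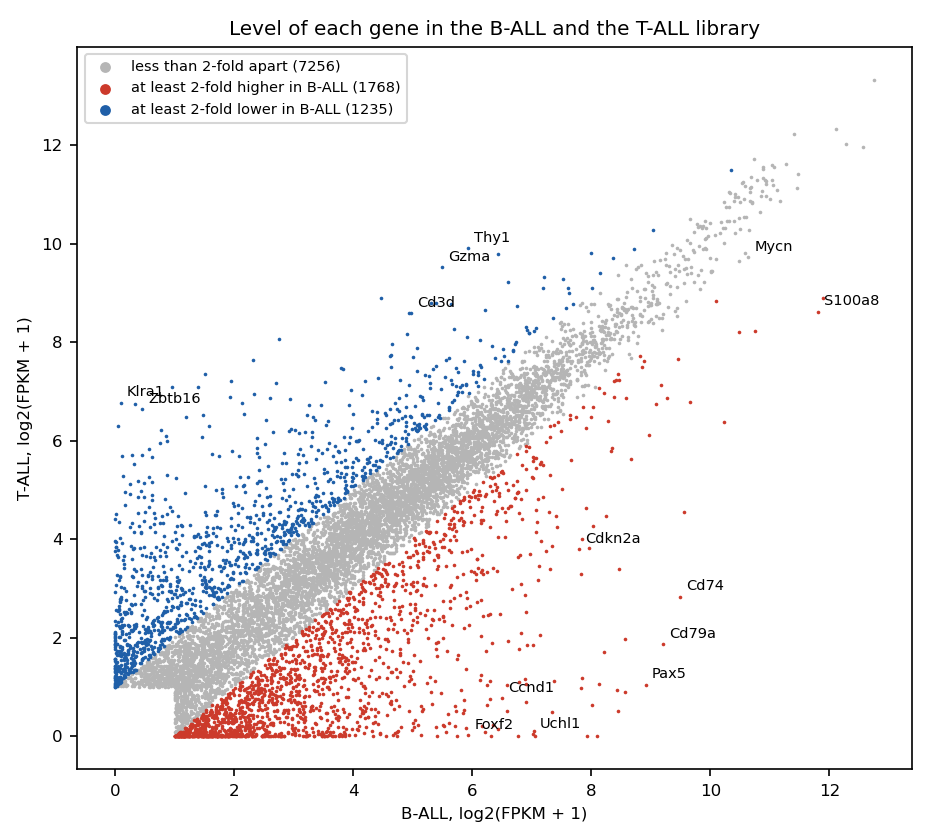
Each point is 1 of the 10259 genes, with log2(FPKM + 1) in B-ALL on the x axis and in T-ALL on the y axis; colours mark the 1768 genes at least 2-fold higher and the 1235 at least 2-fold lower in B-ALL. Genes of the B-cell receptor lie far to the lower right, genes of T cells to the upper left, and Mycn close to the diagonal at a high level in both.

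Markers of other cells were read first, because the sorted cells can hold RNA of other cells. B-ALL was at least 2-fold above T-ALL for all 20 neutrophil granule genes, with a median log2 difference of 2.74 and a summed level of 13269 FPKM in B-ALL and 1959 in T-ALL. That sum was 3504 FPKM in normal B, 1239 in normal T and 207383 in normal Mac1+ Gr1+ myeloid cells. S100a8 and S100a9, which form the calcium-binding protein calprotectin, had 3581 and 3785 FPKM in B-ALL against 392 and 473 in T-ALL, and none of the 20 genes was at 0 in either library. Of 16 monocyte and macrophage genes 7 were higher and none was lower, led in level by Lyz2, the lysozyme gene (385 FPKM in B-ALL, 116 in T-ALL). Of 8 listed mast cell and basophil genes 6 reached 1 FPKM, all higher in B-ALL, with a sum of 54.0 FPKM in B-ALL against 6.66 in T-ALL. Of 10 promyelocyte genes 6 were higher and 2, Nkg7 and Gfi1, which lymphocytes also use, were lower. The normal T library in turn held B-cell transcripts, with Pax5 at 1073 FPKM in normal B and 149.5 in normal T. The part of these cells in other differences was not tested. Without the genes at least 4-fold higher in normal myeloid cells than in normal B and normal T, the higher genes numbered 1437 and the lower ones 1213.

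Genes of B-cell identity were far higher in B-ALL. Of 15 B-lineage transcription factors 13 were at least 2-fold higher in B-ALL and none was lower, with a median log2 difference of 4.11, against 0.033 over all genes. Pax5 (ENSMUSG00000014030, mm10 chromosome 4, 44524757 to 44710487) had 482 FPKM in B-ALL and 1.07 in T-ALL, 453-fold higher (95% counting interval 351 to 595). Ebf1, which acts upstream of Pax5, had 73.7 FPKM in B-ALL and 0.0553 in T-ALL, in T-ALL from 6 fragments. Spib, an ETS factor of B cells, had 229 FPKM in B-ALL against 1.27 in T-ALL, Bach2, a repressor that delays plasma cell formation, 58.7 FPKM in B-ALL against 0.121 in T-ALL, and Pou2af1, the coactivator OBF-1, 351 FPKM in B-ALL against 9.46 in T-ALL. The members that were not different were Ikzf3 (132 FPKM in B-ALL, 85.7 in T-ALL) and Id3 (92.0 FPKM in B-ALL, 151 in T-ALL), factors that T cells use as well.

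Of 21 B-cell receptor and B surface genes 18 were higher in B-ALL and none was lower, with a median of 4.37. Cd79a and Cd79b, the signalling chains of the receptor, had 590.3 and 279.8 FPKM in B-ALL against 2.65 and 1.09 in T-ALL. Cd22, an inhibitory receptor, had 160.1 FPKM in B-ALL against 0.401 in T-ALL. The kinases Syk (120.2 FPKM in B-ALL, 2.63 in T-ALL), Btk (95.7 FPKM in B-ALL, 2.80 in T-ALL) and Blk (47.9 FPKM in B-ALL, 0.206 in T-ALL) and the adaptor Blnk (26.8 FPKM in B-ALL, 0.133 in T-ALL) were higher too. In T-ALL the higher genes of this list stood at a median of 1.25% of their B-ALL level. The receptor genes Fcer2a and Cd38 were less than 2-fold apart by the log2(FPKM + 1) rule, with Fcer2a at 0.634 FPKM in B-ALL and 1.34 in T-ALL and Cd38 at 3.16 FPKM in B-ALL and 3.86 in T-ALL.

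MHC class II genes, which present peptides to T cells, were higher in B-ALL in 9 of 10 cases, with a median of 3.62. Cd74, the invariant chain, had 716 FPKM in B-ALL and 6.14 in T-ALL, and H2-Aa had 296 FPKM in B-ALL and 2.27 in T-ALL. Ciita, the transactivator of these genes, had 17.6 FPKM in B-ALL against 0.145 in T-ALL. H2-DMa was the exception, at 42.4 FPKM in B-ALL against 90.3 in T-ALL, while its partner H2-DMb1 was at 44.7 FPKM in B-ALL against 3.0 in T-ALL.

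Of 13 listed genes of the pro-B and pre-B stages, 9 reached 1 FPKM, 7 of them higher in B-ALL. The median over all of the listed ones was 1.04. Several reached 1 FPKM only in B-ALL. Rag1 and Rag2, which cut receptor genes for recombination, had 5.84 and 3.10 FPKM in B-ALL, against 0.00701 and a listed 0 in T-ALL. The surrogate light chain genes Igll1 and Vpreb1 had 1.09 and 1.24 FPKM in B-ALL against 0.0186 and 0.287 in T-ALL. Vpreb3, which belongs to the same family but is used by later B cells too, was 469-fold higher (256 FPKM in B-ALL, 0.547 in T-ALL). Bst1, a surface enzyme of early B cells, had 51.8 FPKM in B-ALL against 0.424 in T-ALL.

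T-cell receptor signalling genes were mostly lower in B-ALL. Of 25 CD3 and T-cell receptor signalling genes 20 were at least 2-fold lower in B-ALL and 2 were higher, with a median log2 difference of -2.87. Thy1, a surface glycoprotein of T cells, had 60.1 FPKM in B-ALL and 957 in T-ALL, the kinase gene Lck 95.6 FPKM in B-ALL and 596 in T-ALL, the adaptor gene Lat 40.8 FPKM in B-ALL and 441 in T-ALL. The receptor genes Cd5 and Cd6 had 2.82 and 2.87 FPKM in B-ALL against 118 and 146 in T-ALL. Themis, which sets the strength of receptor signals, had 0.0494 FPKM in B-ALL against 19.5 in T-ALL. The 20 lower genes stood in B-ALL at 0.254% to 27.6% of their T-ALL level, with a median of 11.1%. The higher ones were Txk, a Tec-family kinase of T cells (7.51 FPKM in B-ALL, 0.787 in T-ALL), and Rhoh, a small GTPase of lymphocytes (37.5 FPKM in B-ALL, 16.6 in T-ALL). Cd2, an adhesion receptor, was at 63.6 FPKM in B-ALL and 65.5 in T-ALL.

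T-lineage transcription factors were less uniform. Of 17, 8 were lower in B-ALL and 1 was higher, with a median of -0.95. Gata3 had 5.05 FPKM in B-ALL and 115 in T-ALL, Tcf7, which encodes TCF-1, 85.0 FPKM in B-ALL and 882 in T-ALL, and Bcl11b 5.99 FPKM in B-ALL and 45.5 in T-ALL. Zbtb16 (ENSMUSG00000066687, mm10 chromosome 9, 48654297 to 48836222), which encodes the factor PLZF of innate-like T cells, was 272-fold lower (0.361 FPKM in B-ALL, 98.4 in T-ALL). Runx3 (103 FPKM in B-ALL, 65.7 in T-ALL), Notch1 (47.4 FPKM in B-ALL, 59.4 in T-ALL) and Lef1 (12.8 FPKM in B-ALL, 20.2 in T-ALL) were less than 2-fold apart. Satb1, a chromatin organiser, was the higher one, at 14.3 FPKM in B-ALL against 6.61 in T-ALL.

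Of 13 thymocyte, coreceptor and Notch target genes 12 were in the deposited table, and Ptcra was absent. Of the 12, 6 reached 1 FPKM, of which 4 were higher in B-ALL and 1 was lower. The lower one, Cd4, had 0.533 FPKM in B-ALL and 26.8 in T-ALL, and Cd8a, which stayed under 1 FPKM in both, had 0.243 FPKM in B-ALL and was listed at 0 in T-ALL. The Notch target genes Hes1 and Dtx1 were both higher in B-ALL, Hes1 at 34.5 FPKM in B-ALL against 0.421 in T-ALL and Dtx1 at 23.9 FPKM in B-ALL against 1.49 in T-ALL. Normal B had 35.3 FPKM of Hes1.

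Of 18 cytotoxic and NK-cell genes 8 were higher in B-ALL, mostly at low levels, and 7 lower. Their summed level was 159 FPKM in B-ALL and 1036 in T-ALL, and the median log2 difference was 0.40, or -2.94 at a minimum of 5 FPKM. Gzma, a granzyme gene, had 44.1 FPKM in B-ALL and 732 in T-ALL, Cst7, cystatin F, 6.55 FPKM in B-ALL and 71.9 in T-ALL, and Tbx21, which encodes T-bet, 3.41 FPKM in B-ALL and 32.9 in T-ALL. On the other side, Eomes, a related T-box factor, had 20.9 FPKM in B-ALL and 0.0430 in T-ALL, and Gzmk, another granzyme, 11.8 FPKM in B-ALL and 0.539 in T-ALL. Normal B had 5.68 FPKM of Eomes and 0.257 of Gzmk, and normal T had 46.6 of Eomes and 26.2 of Gzmk. The NK receptor genes Klrd1 and Klrk1 were listed at 0 in T-ALL and had 2.05 and 1.92 in B-ALL.

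The named genes with the largest differences, in which predicted genes and receptor segments are left out, are shown with their normal counterparts. The 20 highest had 60.1 to 716 FPKM in B-ALL and 0.0196 to 6.14 in T-ALL, and 19 of them were also at least 2-fold higher in normal B than in normal T. The exception was Foxf2, a forkhead transcription factor better known from mesenchyme, with 60.1 FPKM in B-ALL and 0.0196 in T-ALL, where 2 fragments were counted (3066-fold higher, 95% counting interval 848 to 25319). It was listed at 0 in normal B and in normal T. Reln, the secreted glycoprotein reelin, had 131 FPKM in B-ALL against 0.0716 in T-ALL, and Uchl1, a ubiquitin hydrolase of neurons, 129 FPKM in B-ALL against a single fragment in T-ALL. Uchl1 and Reln were above their normal B levels of 38.6 and 26.2, and they and Foxf2 were the 3 of the 20 for which this was so. Cecr2, a chromatin remodelling subunit, Myl4, a myosin light chain, Cnn3, an actin-binding calponin, and the proteoglycan gene Sdc4 had 85.7, 80.7, 95.3 and 70.6 FPKM in B-ALL, against 0.10, 0.171, 0.434 and 0.156 in T-ALL.

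The 20 lowest had 0.0387 to 3.95 FPKM in B-ALL and 37.9 to 198 in T-ALL, and 14 of them were also at least 2-fold lower in normal B than in normal T. In 19 of the 20 the T-ALL level was above that of normal T. Klra1, an inhibitory Ly49 receptor of NK cells, had 0.0652 in B-ALL, from 3 fragments, and 108 in T-ALL (1661-fold lower, 95% counting interval 568 to 8056). Perp, a p53 target of cell junctions, had 0.263 FPKM in B-ALL against 106 in T-ALL, Mpp4, a membrane scaffold protein, 0.0387 FPKM in B-ALL against 77.1 in T-ALL, and Bmp7, a secreted ligand of the BMP family, 0.692 FPKM in B-ALL against 60.8 in T-ALL. Receptors of T-helper cytokines and chemokines stood among them, with Il17rb, the IL-25 receptor, at 0.932 FPKM in B-ALL against 136 in T-ALL, Il9r at 0.219 FPKM in B-ALL against 51.4 in T-ALL and Ccr4 at 0.0773 FPKM in B-ALL against 50.8 in T-ALL. Izumo1r, the folate receptor 4 of T cells, had 1.85 FPKM in B-ALL against 162 in T-ALL. Batf3, an AP-1 family factor, had 0.0947 FPKM in B-ALL against 37.9 in T-ALL.

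Il17rb and Chdh, the gene of choline dehydrogenase, are neighbours on chromosome 14, read in opposite directions from start sites 104 bases apart in RefSeq (build GRCm38.p6). Chdh had 1.62 FPKM in B-ALL and 136 in T-ALL, a level close to that of Il17rb in T-ALL. Chdh had 25.4 FPKM in normal B and 4.50 in normal T, and Il17rb had 6.90 in normal B and 4.46 in normal T. In T-ALL both genes of the pair were above each of the other 3 libraries.

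**Figure D2:**
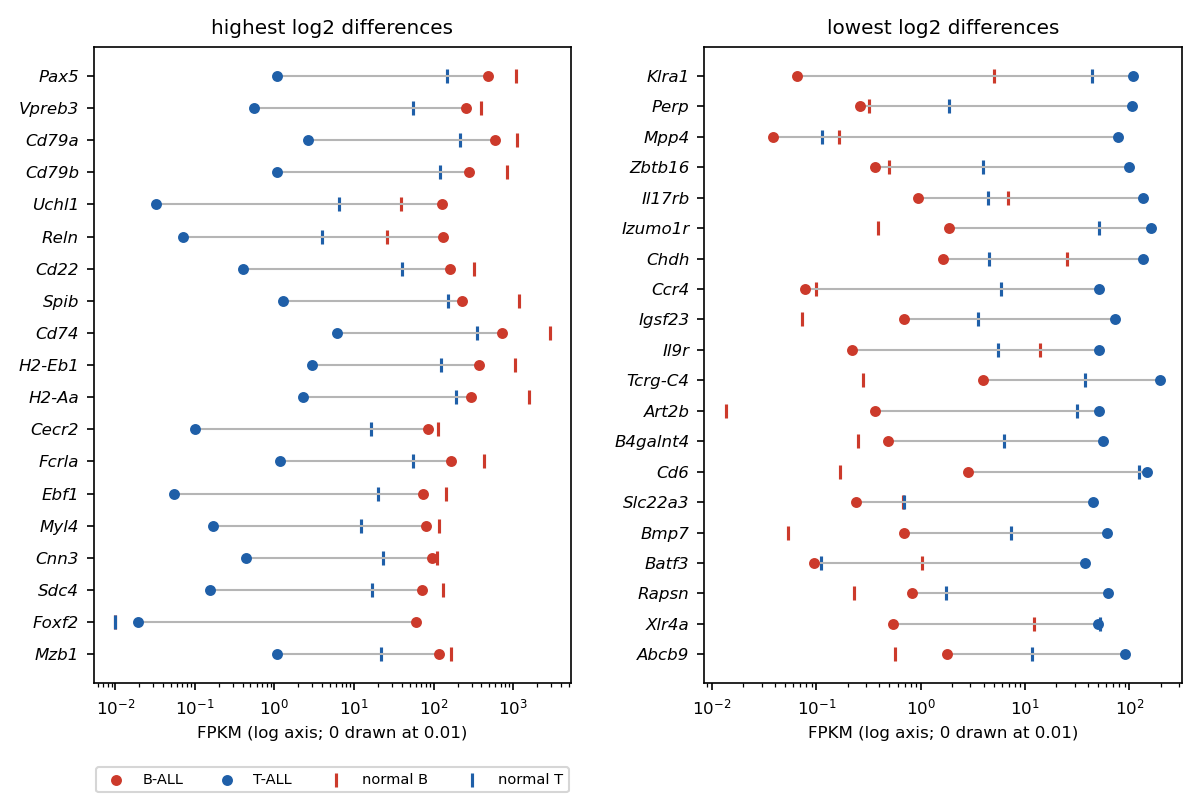
Of the 20 genes with the highest log2 difference of B-ALL minus T-ALL 19 are drawn on the left, and the 20 with the lowest on the right, with their FPKM on a log axis; dots are the leukaemia libraries and vertical ticks the normal ones. In the left panel T-ALL lies below normal T except for Foxf2, and in the right panel T-ALL lies above normal T except for Xlr4a.

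The 250 bases before the start sites of these genes were read from RefSeq (GRCm38.p6) for letters that known factors bind, on both strands. The promoters of 4 of them are shown, and were chosen because motifs of lymphoid factors stand in them and no annotated exon overlaps them, with the matching letters in capitals. In Vpreb3 (chr10:75948050-75948299, plus strand) the capitals are the octamer ATGCAAAT of Oct-1 and Oct-2 on the reverse strand and the RUNX letters TGTGGT. In Sdc4 (minus strand) they are the EBF1 motif. In Klra1 (minus strand) they are the RUNX letters, and in Il9r (minus strand) the RUNX letters between 2 matches of the GATA letters AGATAA, the second on the reverse strand.
Vpreb3 (chr10:75948050-75948299): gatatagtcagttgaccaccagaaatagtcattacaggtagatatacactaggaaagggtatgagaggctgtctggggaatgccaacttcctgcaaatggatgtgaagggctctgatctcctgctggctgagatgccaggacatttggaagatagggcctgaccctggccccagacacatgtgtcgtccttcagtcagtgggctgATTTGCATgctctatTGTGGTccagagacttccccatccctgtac
Sdc4 (chr2:164443189-164443438): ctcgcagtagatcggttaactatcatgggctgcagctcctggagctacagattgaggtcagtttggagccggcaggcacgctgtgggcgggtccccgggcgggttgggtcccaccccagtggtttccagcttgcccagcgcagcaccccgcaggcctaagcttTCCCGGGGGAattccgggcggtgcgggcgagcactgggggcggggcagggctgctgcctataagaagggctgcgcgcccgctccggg
Klra1 (chr6:130386875-130387124): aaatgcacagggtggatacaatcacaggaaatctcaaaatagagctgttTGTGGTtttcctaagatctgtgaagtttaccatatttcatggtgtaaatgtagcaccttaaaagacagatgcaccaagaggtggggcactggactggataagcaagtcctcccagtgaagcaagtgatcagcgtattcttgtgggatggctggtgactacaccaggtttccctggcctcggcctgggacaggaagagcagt
Il9r (chr11:32200280-32200529): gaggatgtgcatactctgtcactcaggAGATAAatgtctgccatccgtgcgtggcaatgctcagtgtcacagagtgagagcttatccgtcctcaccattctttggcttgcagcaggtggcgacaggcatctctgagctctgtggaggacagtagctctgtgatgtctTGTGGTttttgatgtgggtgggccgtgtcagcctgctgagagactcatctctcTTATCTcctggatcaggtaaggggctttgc
The octamer match of Vpreb3 begins 45 bases before the start site and its RUNX match 30 before. Of 16 promoters found for the 20 highest genes, the octamer stood in 1, the EBF1 motif in 2 and the RUNX letters in 2. Of 18 promoters found for the 20 lowest genes, the RUNX letters stood in 7, the GATA letters in 2, and the octamer and the EBF1 motif in 0. The octamer stood in 1.86% of 591 promoters of genes at least 4-fold higher in B-ALL, in 0.568% of 352 promoters of genes at least 4-fold lower and in 1.60% of all 32851 RefSeq promoters. The EBF1 motif stood in 2.03% of the promoters of the higher genes, 1.42% of those of the lower genes and 0.779% of all. For the ETS letters GAGGAAGT of PU.1 and Spi-B the shares were 4.23% for higher genes, 3.12% for lower genes and 2.44% for all, and for the RUNX letters 12.9%, 15.3% and 14.0% in the same order. The E-box CACGTG of the MYC family stood in 6.26% of the promoters of higher genes, 5.97% of those of lower genes and 6.02% of all, and in 8.92% of those of genes less than 2-fold apart. For the GATA letters the shares of higher genes, lower genes and all promoters were 6.26%, 7.39% and 9.99%, and for the TCF/LEF letters CTTTGA 11.5%, 12.8% and 13.8%. All RefSeq promoters include those of genes not compared here. Among genes less than 2-fold apart, GATA letters stood in 5.70%, TCF/LEF letters in 10.7% and RUNX letters in 11.0%, below both the higher and the lower genes. In that set the octamer stood in 1.07%, the EBF1 motif in 0.661% and the ETS letters in 2.66%. The searched motifs can overlap in part, and a match is only a run of letters. Promoters were found for 458 of the 687 higher and 266 of the 423 lower genes.

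The antigen receptor genes showed which segments each library transcribed. In T-ALL a single beta V segment, Trbv12-1, held all of the Trbv signal, with 473 FPKM in T-ALL and 21.0 in B-ALL, while all other Trbv segments in the table were listed at 0 in T-ALL. Normal T had 21 of 22 Trbv segments at 1 FPKM or more, and its leading segment held 9.50% of the sum. Trbj2-7 had 38.7 in B-ALL and 444 in T-ALL, and the constant genes Trbc1 and Trbc2 had 48.9 and 146 in B-ALL and 434 and 549 in T-ALL. T-ALL also had the delta segment Trdv1 at 272 FPKM and the gamma segments Trgv2 and Trgj4 at 209 and 265, against 58.9, 23.4 and 5.74 in B-ALL, although the delta constant gene Trdc was listed at 0 in T-ALL. Trac, the alpha constant gene, had 69.4 in B-ALL and 264 in T-ALL, with 38 of 40 Traj segments at 1 FPKM or more in T-ALL. The 70 Trav segments summed to only 10.6 FPKM there, against 397 in normal T.

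The T-cell receptor segments did not stand in the same proportions in B-ALL and T-ALL. In B-ALL 6 of 22 Trbv segments reached 1 FPKM. In B-ALL the beta V segment with the highest level was Trbv2, at 41.3 FPKM or 53.5% of the Trbv sum, which was listed at 0 in T-ALL, and Trbv12-1 came next. As a share of the T-ALL level, the B-ALL level was 4.43% for Trbv12-1, 8.71% for Trbj2-7, 2.17% for Trgj4, 21.7% for Trdv1 and 26.3% for Trac. Which cells these transcripts of the B-ALL library came from was not tested.

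The immunoglobulin genes were the reverse. Ighm, the constant gene of IgM, had 704 FPKM in B-ALL and 202 in T-ALL, and Igkc, the kappa constant gene, 499 FPKM in B-ALL and 68.1 in T-ALL. The Ighj segments summed to 1194 FPKM in B-ALL and 2.26 in T-ALL, and Ighd4-1 had 271 in B-ALL and was listed at 0 in T-ALL. The Ighv and Igkv segments of B-ALL were spread over many genes, but over fewer than in normal B. Of 123 Ighv segments 57 reached 1 FPKM, and the leading one, Ighv2-2, held 16.2% of a sum of 317 FPKM. Normal B had 111 at that level, with a leading share of 5.68% of 3271 FPKM. Of 111 Igkv segments 65 reached 1 FPKM, and the leading one held 5.81% of 385 FPKM. For normal B these values were 107 segments and 4.53% of 4097 FPKM. A lower sum also leaves fewer segments at 1 FPKM. Only 3 Iglv segments were in the table, so their leading share cannot be compared with those of Ighv and Igkv. Iglv1 held 91.0% of the Iglv sum in B-ALL, 93.9% in T-ALL and 52.3% in normal B. In T-ALL the Ighv sum was 94.7 FPKM and the Igkv sum 70.0. Receptor segments are short and alike in sequence, so counts can be split between them, and these values are uncertain for single segments.

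**Figure D3:**
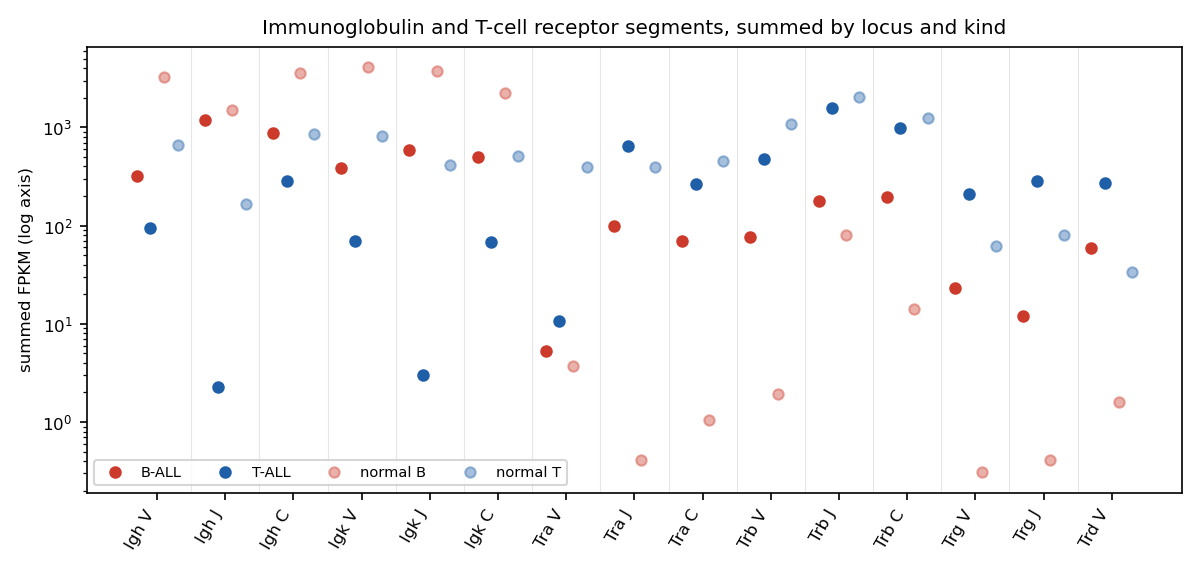
Summed FPKM of the V, J and C segments of each immunoglobulin (Ig) and T-cell receptor (Tr) locus are drawn on a log axis, 1 point for each of B-ALL, T-ALL, normal B and normal T. The Ighj sum is 1194 in B-ALL and 2.26 in T-ALL, and the Trav sum is low in both leukaemias beside 397 in normal T.

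Genes of 4 growth lists, for ribosome biogenesis, metabolism, DNA replication and mitosis, were mostly less than 2-fold apart, unlike the lineage genes. The lists of G1 cyclins and CDK inhibitors are not counted among them and are given below. The ribosome biogenesis, metabolic, DNA replication and mitotic lists together held 109 measured genes, of which 5 (4.59%) were at least 2-fold apart, beside 29.3% of all genes, and their median log2 difference was 0.17. These genes were also more abundant than most, with a median of 111 FPKM in the higher library against 14.8 over all genes, and abundance was not matched. Among the 27 ribosome biogenesis genes none was 2-fold apart. Npm1, nucleophosmin, had 2232 FPKM in B-ALL and 2170.1 in T-ALL, Ncl, nucleolin, 1207 FPKM in B-ALL and 1037 in T-ALL, and Rrp12, at 11.5 FPKM in B-ALL and 20.3 in T-ALL, was the lowest of the list. Among the 27 mitotic genes none was 2-fold apart either, with Mki67 at 160.4 FPKM in B-ALL and 129.6 in T-ALL and Top2a, a topoisomerase, at 525 FPKM in B-ALL and 335 in T-ALL. Of the 27 replication genes only Tyms, thymidylate synthase, passed, at 22.8 FPKM in B-ALL against 59.2 in T-ALL.

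The metabolic exceptions were 4 of 28. Gapdh, a glycolytic enzyme, had 31.1 FPKM in B-ALL and 207 in T-ALL, with many near-identical pseudogenes that make its counts uncertain. Psat1, of serine synthesis, had 118 FPKM in B-ALL and 315 in T-ALL. Hk2, a hexokinase, had 35.1 FPKM in B-ALL and 11.2 in T-ALL, and Tfrc, the transferrin receptor, 349.8 FPKM in B-ALL and 162 in T-ALL. Other glycolytic genes were close, such as Ldha (1654 FPKM in B-ALL and 1799 in T-ALL) and Eno1 (1543 FPKM in B-ALL and 1487 in T-ALL). The 21 cytosolic ribosomal protein genes had no member at 2-fold and a median of -0.43, with Rplp0 at 2699 FPKM in B-ALL against 4752 in T-ALL. Of 9 genes of the MYC family and the MAX network 8 were less than 2-fold apart, with Max at 89.1 FPKM in B-ALL and 85.1 in T-ALL, Mga at 38.3 FPKM in B-ALL and 36.5 in T-ALL and Mnt at 74.8 FPKM in B-ALL and 60.3 in T-ALL. The ninth was Mxd1, an antagonist of MYC proteins, at 65.5 FPKM in B-ALL against 7.97 in T-ALL. Normal myeloid cells had 735 FPKM of Mxd1, beside the neutrophil sums above.

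**Figure D4:**
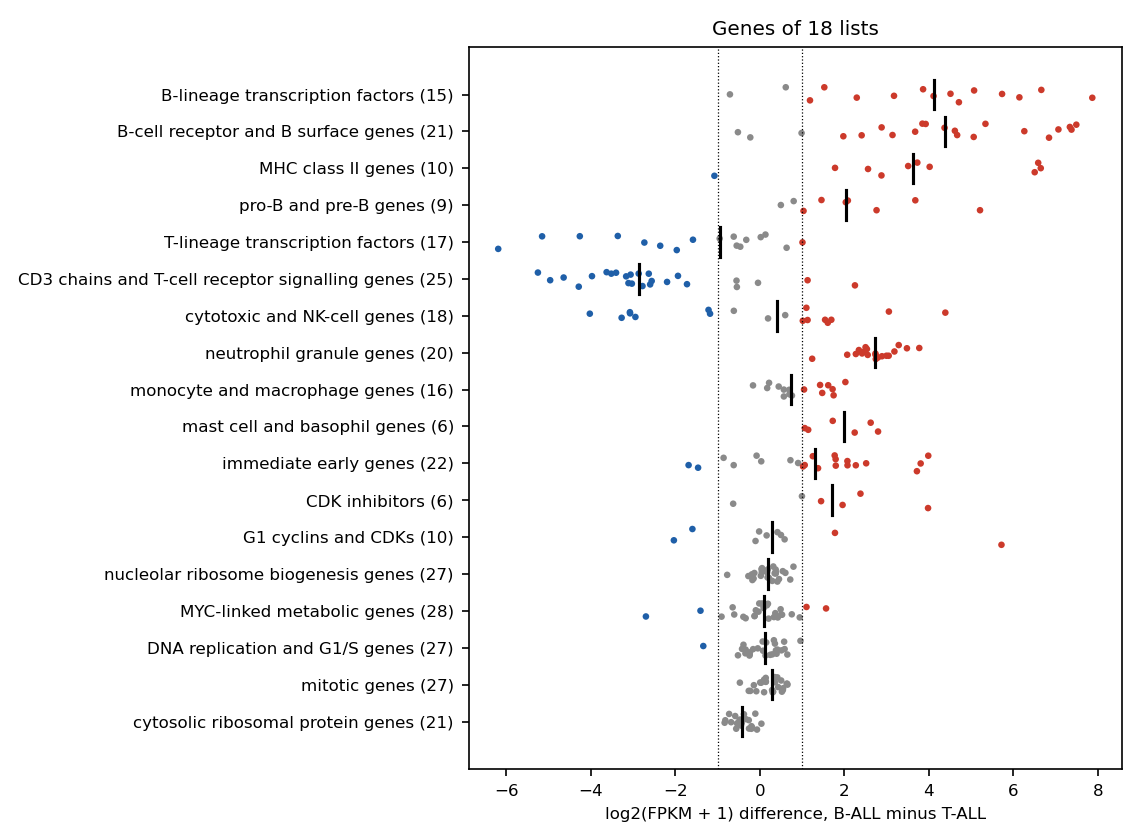
Each point is 1 gene of a list, at its log2(FPKM + 1) difference of B-ALL minus T-ALL. Vertical bars are list medians, dotted lines the 2-fold limits, and numbers in brackets the measured genes. The lineage lists spread to differences of 7.87 and -6.19, whereas the 4 growth lists stay inside the 2-fold limits but for 5 genes.

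The gene of cyclin D1 was higher in B-ALL and that of cyclin D2 in T-ALL. Ccnd1 had 89.0 FPKM in B-ALL and 0.708 in T-ALL, 126-fold higher (95% counting interval 97.8 to 165), and Ccnd2 had 23.4 FPKM in B-ALL and 99.0 in T-ALL. Of 10 genes of G1 cyclins, their kinases and E2F factors, 2 were higher and 2 lower in B-ALL, beside 17.2% and 12.0% of all genes. The other 6 were less than 2-fold apart. Ccnd3 was at 144 FPKM in B-ALL and 101 in T-ALL. Their kinase partners were Cdk4 at 372 FPKM in B-ALL and 399 in T-ALL and, among the lower genes, Cdk6 at 48.7 FPKM in B-ALL and 149 in T-ALL. The other higher gene was E2f2, with 129 FPKM in B-ALL and 36.9 in T-ALL. Of 6 CDK inhibitor genes 4 were higher in B-ALL and none was lower. Cdkn2a, which encodes p16 and ARF, had 219.9 FPKM in B-ALL and 13.0 in T-ALL, 16.9-fold higher (95% counting interval 15.5 to 18.6), Cdkn1a, p21, 9.57 FPKM in B-ALL and 1.03 in T-ALL, and Cdkn2d 49.4 FPKM in B-ALL and 17.4 in T-ALL. Cdkn2c, at 28.4 FPKM in B-ALL and 44.4 in T-ALL, and Cdkn1b, at 37.3 FPKM in B-ALL and 18.2 in T-ALL, were less than 2-fold apart. Trp53, the gene of p53, was at 93.0 FPKM in B-ALL and 103 in T-ALL and Mdm2, its inhibitor, at 48.7 FPKM in B-ALL and 42.5 in T-ALL. Of 16 p53 pathway genes 1, Cdkn1a, was higher, and 3, Perp, Phlda3 and Tnfrsf10b, were lower, beside 17.2% and 12.0% of all genes. Of 11 genes of the BCL2 family 2 were higher in B-ALL and 1 was lower, beside 17.2% and 12.0% of all genes. The higher ones were the death promoters Bcl2l11 (26.2 FPKM in B-ALL, 10.3 in T-ALL) and Bmf (9.52 FPKM in B-ALL, 2.36 in T-ALL). The lower one was the survival gene Bcl2a1d (1.03 FPKM in B-ALL, 14.9 in T-ALL). Bcl2 was low in both at 3.15 FPKM in B-ALL and 2.51 in T-ALL.

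Immediate early genes, which respond to stimulation and to handling of cells, were higher in B-ALL in 14 of 22 cases and lower in 2, with a median of 1.32. Klf2, a factor of lymphocyte homing, had 87.4 FPKM in B-ALL and 4.57 in T-ALL, and Fos had 112 FPKM in B-ALL and 7.55 in T-ALL. The members Egr2 (0.820 FPKM in B-ALL, 4.85 in T-ALL) and Egr3 (3.49 FPKM in B-ALL, 11.4 in T-ALL), which T-cell receptor signals induce, were lower. Normal myeloid cells had 1318 FPKM of Fos and 235 of Klf2, and normal B had 607 of Fos and 380.3 of Klf2. The part of other cells in this difference was not tested.

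Single surface receptors differed in both directions. Of 27 cytokine and chemokine receptor genes 9 were higher in B-ALL and 7 lower, beside 17.2% and 12.0% of all genes, with a list median of 0.50 that was 0.0086 at a minimum of 5 FPKM. S1pr1, the receptor by which lymphocytes leave tissues, had 17.3 FPKM in B-ALL and 0.973 in T-ALL, and Ifngr1 134 FPKM in B-ALL and 42.6 in T-ALL. Cxcr3 had 1.97 in B-ALL and 77.4 in T-ALL, Il27ra 8.16 FPKM in B-ALL and 71.8 in T-ALL, and Il6st, the shared IL-6 family chain, 8.92 FPKM in B-ALL and 71.2 in T-ALL. Cxcr4, which holds cells in the marrow, was at 101 FPKM in B-ALL and 100.4 in T-ALL. Of 15 adhesion genes 5 were higher and 1 was lower, beside the same 17.2% and 12.0% of all genes. The lower one was Itgal, a chain of the integrin LFA-1, with 26.7 FPKM in B-ALL and 148 in T-ALL. Among the higher ones, Itgb7, another integrin chain, had 69.9 FPKM in B-ALL and 22.8 in T-ALL.

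Of 15 matrix genes that reached 1 FPKM, 6 were higher in B-ALL and 3 lower, beside 17.2% and 12.0% of all genes. The list median was 0.57, or 0.050 over all 24 listed. Lamb2 and Lamc1, laminin chains, had 51.4 and 19.5 FPKM in B-ALL against 0.157 and 0.227 in T-ALL, and Fstl1, a secreted glycoprotein, 57.4 FPKM in B-ALL against 0.443 in T-ALL. The lower matrix genes were Timp2 (5.33 FPKM in B-ALL, 20.6 in T-ALL), Adamts10 (26.3 FPKM in B-ALL, 55.0 in T-ALL) and Lama5 (0.729 FPKM in B-ALL, 3.66 in T-ALL). Of 7 Wnt and TCF target genes 3 were higher in B-ALL and 2 were lower, beside 17.2% and 12.0% of all genes. Tcf7 was among the lower ones. Rnf43, a negative regulator of Wnt receptors, had 29.6 FPKM in B-ALL against 0.434 in T-ALL, and Lgr5 had 5.45 FPKM in B-ALL and no fragment in T-ALL, at least 189-fold higher against a floor of 3 fragments. Axin2, another Wnt target, went the other way with 1.03 FPKM in B-ALL against 13.1 in T-ALL. Of 12 JAK-STAT genes 4 were higher in B-ALL and 2 were lower, beside 17.2% and 12.0% of all genes. The cytokine signal suppressors Socs2 (6.84 FPKM in B-ALL, 0.0326 in T-ALL), Socs3 (16.5 FPKM in B-ALL, 1.65 in T-ALL) and the factor Stat4 (6.87 FPKM in B-ALL, 0.165 in T-ALL) were higher, and the kinase Jak2 (5.61 FPKM in B-ALL, 14.5 in T-ALL) was lower.

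Of 16 genes for transcription factors known as oncogenes in human T-ALL, 11 were in the deposited table, and Tlx1 and Tlx3 were among those absent. Of the 11, 7 reached 1 FPKM, and 5 of these were higher in B-ALL. Over all 11 the median was 0.38. Mef2c, which B cells also need, had 56.5 FPKM in B-ALL and 0.388 in T-ALL, Lyl1 54.7 FPKM in B-ALL and 6.25 in T-ALL, and Hhex 23.1 FPKM in B-ALL and 1.66 in T-ALL. Of 22 listed stem and progenitor genes 11 reached 1 FPKM and 8 were higher in B-ALL, Mef2c and Hhex again among them, and others were low, such as Kit (2.92 FPKM in B-ALL, 0.849 in T-ALL). Of 17 interferon response genes 4 were higher in B-ALL and 1 was lower, beside 17.2% and 12.0% of all genes. Oasl2 was among the higher ones (8.94 FPKM in B-ALL, 0.540 in T-ALL), and Ifit2 was the lower one (6.78 FPKM in B-ALL, 17.4 in T-ALL). MHC class I genes had 2 members higher and 2 lower of 14, near the shares of all genes (17.2% higher, 12.0% lower), with H2-K1 at 692 FPKM in B-ALL and 410.2 in T-ALL and H2-Q7 at 38.3 FPKM in B-ALL and 144 in T-ALL, in a family whose members are alike in sequence. The DNA methylation and Polycomb list names 20 genes, of which 12 were in the deposited table. Pcgf2 (4.24 FPKM in B-ALL, 12.6 in T-ALL) was the single one of these at 2-fold. No mitochondrially encoded gene of 13 reached 2-fold.

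The remaining marker lists were small or low, and their counts stand beside 17.2% of all genes higher in B-ALL and 12.0% lower. Of 9 erythroid genes 3 were higher in B-ALL, led by Car2 (17.9 FPKM in B-ALL, 0.597 in T-ALL), and of 6 plasmacytoid dendritic cell genes 3 were higher and 2 lower, with Siglech at 1.59 FPKM in B-ALL against 0.0144 in T-ALL. Plasma cell genes had 3 of 6 higher, with Mzb1 at 118 FPKM in B-ALL against 1.07 in T-ALL, and Xbp1 (26.1 FPKM in B-ALL, 54.1 in T-ALL) and Sdc1 (7.85 FPKM in B-ALL, 23.4 in T-ALL) lower. The only megakaryocyte gene that reached 1 FPKM was Itga2b (4.01 FPKM in B-ALL, 0.650 in T-ALL).

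The difference of the leukaemias was set beside that of the normal cells sorted by the same antigens. Across 9312 genes with at least 1 FPKM in a leukaemia and in a normal library, the log2 difference of B-ALL minus T-ALL had a Pearson correlation of 0.502 and a Spearman correlation of 0.433 with that of normal B minus normal T. Genes are not independent replicates, and the 2 differences share no library. Of the 1768 genes higher in B-ALL, 757 (42.8%) were also at least 2-fold higher in normal B, 145 were lower there, 664 were less than 2-fold apart and 202 did not reach 1 FPKM in either normal library. Of the 1235 lower genes, 432 (35.0%) were also lower in normal B, 49 higher, 491 within 2-fold and 263 below 1 FPKM. Of all 10608 genes of the normal pair, 17.9% were higher in normal B and 12.0% lower.

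Gene position, which the choice of genes did not use, went with a shift of whole chromosomes. Genes on chromosome 19 were lower in B-ALL and genes on chromosome 16 higher. Over genes with at least 1 FPKM, receptor segments left out, the median log2 difference was -0.62 for the 354 genes on chromosome 19 (quartiles -0.97 and -0.11) and 0.45 for the 337 on chromosome 16 (quartiles -0.0065 and 0.97). The other autosomes and X lay between -0.051 on chromosome 8 and 0.21 on chromosome 13. Among the more abundant genes, with at least 10 FPKM in either library, the median of the 221 genes on chromosome 19 was -0.72 relative to all genes, and that of the 221 on chromosome 16 was 0.47. The other chromosomes then lay between -0.059 and 0.21. On chromosome 19, 82.8% of the genes lay below the median of all genes, and on chromosome 16, 78.3% lay above it. In windows of 10 megabases with at least 10 genes, all 6 windows of chromosome 19 were lower (-0.81 to -0.34) and all 8 of chromosome 16 higher (0.35 to 0.72). Of the 185 windows elsewhere, 8 were at -0.3 or below and 15 at 0.3 or above, limits set after these values were seen.

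The low level of chromosome 19 was seen in B-ALL against each library it was set beside. Against AML, AUL and normal B, the chromosome 19 median of B-ALL was -0.61, -0.61 and -1.04, the lowest of 20 chromosomes each time. That of T-ALL was 0.088 against AML, 0.057 against AUL and -0.19 against normal T. These differences share libraries and are given side by side. On chromosome 16, B-ALL was higher than AUL (0.54) and normal B (0.56) but not than AML (-0.10), and T-ALL was lower than AML (-0.57), close to AUL (0.039) and higher than normal T (0.22). Normal B minus normal T gave 0.10 and 0.083 for chromosomes 16 and 19.

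The shift reached the counts of single genes. Of the chromosome 19 genes with at least 1 FPKM, 24% were at least 2-fold lower in B-ALL, beside 12.0% of all genes, and of those on chromosome 16, 23.4% were at least 2-fold higher, beside 17.2%. Chromosomes 13 and 1 had nearly as many higher genes, at 22.1% and 21.5%. Cd5 and Cd6 of the T-cell lists lie on chromosome 19, as does Ms4a1 (CD20) of the B-cell list, at 15.8 FPKM in B-ALL against 0.104 in T-ALL. The number of DNA copies of these chromosomes was not measured in the files used here, and its part in the shift was not tested.

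**Figure D5:**
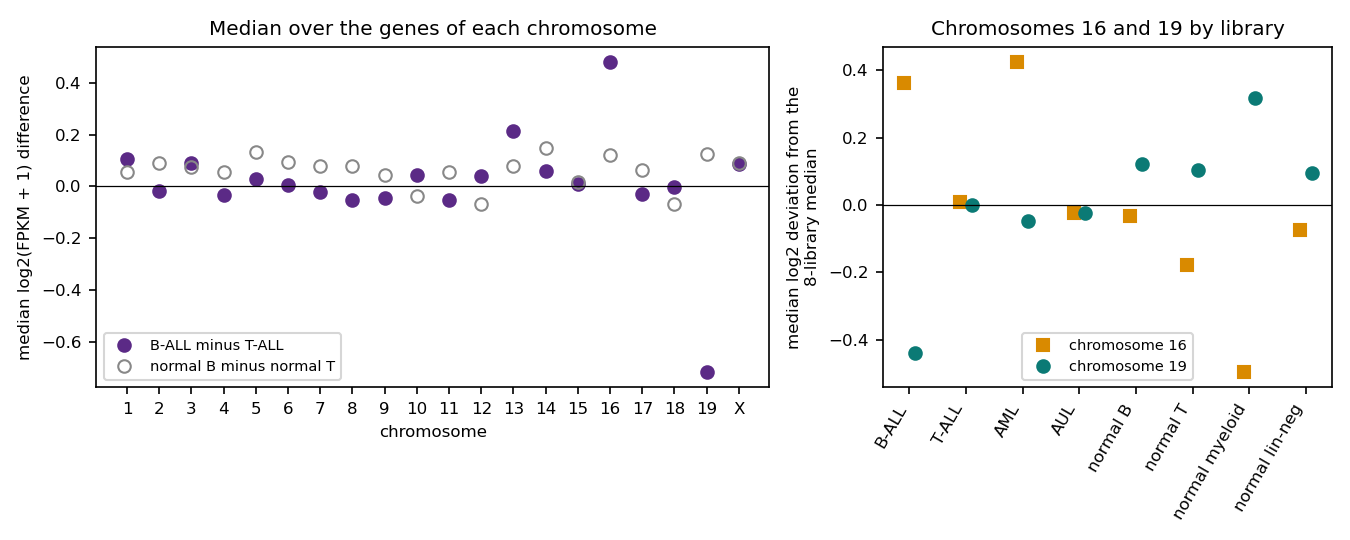
Left, the median log2(FPKM + 1) difference over the genes of each chromosome with at least 10 FPKM in B-ALL or T-ALL, for B-ALL minus T-ALL (filled) and normal B minus normal T (open); chromosome 16 stands at 0.48 and chromosome 19 at -0.72. Right, the median deviation of chromosomes 16 and 19 in each library from the 8-library median of each gene; B-ALL is at 0.36 and -0.44.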

How the data were processed

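RNA of 8 sorted mouse marrow populations, 1 library each, was sequenced with paired reads after oligo(dT) selection, per the labels' protocols. STAR, HTSeq, edgeR and the mm10 build are named in the submitters' processing notes, without versions. The authors deposited 1 table of FPKM values per gene, whose strand setting and rule for listing genes are not given in the sources used here. Fragments were recovered from the FPKM steps and mean transcript lengths and rounded to whole numbers. Among genes with 1 transcript, 95.3% of the lower values checked in B-ALL and 94.8% in T-ALL lay within 0.02 of a whole fragment. Over all genes these shares were 75.6% and 75.4%, so numbers and intervals of genes with several transcripts are approximate. The rounded numbers gave a 95% interval of each ratio (exact, binomial, given the sum of both counts), and a value of 0 was given a floor of 3 fragments. Levels were compared as log2(FPKM + 1) from the deposited values, computed with Python 3.11.15, pandas 2.3.3, numpy 2.4.6 and scipy 1.17.1, without a test, since each group has 1 library. The recovery of the library totals from genes with 1 transcript was checked on simulated data. Named genes are those of the N-Myc driver and the gates, the 20 highest and 20 lowest differences among genes with at least 10 FPKM in the higher library, without predicted genes and receptor segments, and genes of the lists, first those with high levels or large differences. Of the 20 highest, 1 is not reported here. The genes and lists were chosen with earlier results of these data known. Gene positions are those that the authors deposited beside the FPKM values, and transcript lengths are those of mm10 gene models matched by gene identifier. Gene names damaged by a spreadsheet, such as dates, were matched to no list. Alternatives were 2 other scalings, 2 other pseudocounts, other filters on level and gene class, and the counting interval.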

Additional observations from a re-analysis of the deposited data

Results flagged for a closer look

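Chdh and Il9r stood out because the B minus T difference of the leukaemias ran against that of the normal cells. Chdh, of choline oxidation, had 1.62 FPKM in B-ALL and 136 in T-ALL, a log2 difference of -5.70, while it had 25.4 in normal B and 4.50 in normal T, a difference of 2.26. Il9r, the receptor of interleukin 9, had 0.219 FPKM in B-ALL and 51.4 in T-ALL, a log2 difference of -5.43, and 13.8 in normal B and 5.51 in normal T, a difference of 1.18. With 1 library per group, these differences between the leukaemias and the normal cells were not tested.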

How the results depend on the processing

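The counts of genes at least 2-fold apart depended on how low values were treated. With a pseudocount of 5 in place of 1, 833 genes were higher and 638 lower, and with a minimum of 5 FPKM 1097 were higher, against 1768 higher and 1235 lower as reported. Under the other settings, scalings included, the higher count stayed between 1437 and 2115 and the lower count between 892 and 1583. Relative to all genes, the median of chromosome 19 was -0.65, with -0.45 at a pseudocount of 5 and -0.49 among genes less than 2-fold apart. That of chromosome 16 was 0.43, with 0.31 at a pseudocount of 5. The chromosome settings and the removal of myeloid genes were chosen after seeing the data. Of 39 list medians with 233 alternative values, 8 lists dropped under the 2-fold limit and 4 passed it in the same direction under at least 1 setting. No median at or past the limit changed sign, but 2 medians under it did at a minimum of 5 FPKM. That of cytotoxic and NK-cell genes was 0.40 and became -2.94, past the limit, and that of plasmacytoid dendritic cell genes was 0.79 and became -0.49. The median of T-lineage transcription factors was -0.95 and became -1.28 under median-ratio scaling. Of 47 named genes with 188 alternative values none was reversed. No paired analysis was possible because each group has 1 library, and for the same reason no library could be left out. A value of 0 allows up to 3 fragments, and differences of genes near 1 FPKM rest on few fragments.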

Other observations

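Several abundant genes outside the lists differed, and were picked after their values were seen. Vim, the intermediate filament vimentin, had 755 FPKM in B-ALL and 22.3 in T-ALL, 33.8-fold higher (95% counting interval 32.1 to 35.7), with 326 in normal B and 302 in normal T. S100a6, a calcium-binding protein, had 248 in B-ALL and 13.1 in T-ALL, Anxa1, annexin A1, 406 in B-ALL and 48.6 in T-ALL, and Lgals1, galectin 1, 326 in B-ALL and 56.8 in T-ALL. Normal myeloid cells had 742 FPKM of Vim, 1634 of S100a6, 5162 of Anxa1 and 82.0 of Lgals1. Anxa1 lies on chromosome 19. Hmgn1, a nucleosome-binding protein gene on chromosome 16, had 578 FPKM in B-ALL and 138 in T-ALL.

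In the other direction, Hspa8, the constitutive heat shock protein HSC70, had 1296 FPKM in B-ALL and 2866 in T-ALL. Laptm5, a lysosomal protein of blood cells, had 255 in B-ALL and 893 in T-ALL, and the gamma chain constant gene Tcrg-C2 had 28.8 in B-ALL and 285 in T-ALL. Xist, which silences 1 X chromosome of female cells, had 367 in B-ALL and 414 in T-ALL.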
